A study of Rattus norvegicus with 4 samples.

Results

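G protein coupled receptors carry signals from lipids, peptides, proteases and matrix into Schwann cells (SCs), which wrap the axons of peripheral nerves in myelin. The transcripts of 10 such receptors were followed in cultured rat SCs that expressed the Egr2 promoter antisense RNA (Egr2-AS). The receptors were Gper1, Adgrg6, Lpar1, S1pr1, S1pr2, S1pr3, Ednra, Ednrb, Gpr37l1 and F2r. They were chosen by name, as receptors known from SCs, and Gper1 was added because its transcript was lower in the cells with Egr2-AS. The comparison of the groups was therefore part of the choice of Gper1, and its values are given as a description with no test. Rows with these symbols were found for 9 of the 10 receptors among the 17949 genes of the counts table. Adgrg6 had no row under this symbol or as Gpr126 and was not analysed here. The other 9 receptors all had counts, and 8 passed the filter on low counts.

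The samples were primary SCs of rat sciatic nerve, grown in 10% serum with 4 µM forskolin, which activates adenylyl cyclase, and 5 ng/ml heregulin-β1, a neuregulin. All 4 samples were therefore grown with a cAMP stimulus. Cells were infected for 48 h with lentivirus and polybrene, with a virus carrying GFP in the 2 Lenti-GFP samples and one carrying the Egr2-AS in the 2 Lenti-AS samples. The Egr2-AS was cloned in a vector with a DsRed reporter, so that the antisense insert and the reporter cannot be told apart in this comparison. The Egr2-AS was not analysed here as a row of its own, and the labels were not checked by it. The protocol calls the samples biological replicates without saying whether they came from separate animals or cultures, so that p-values measure the spread between these samples, which may be technical.

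As background, such receptors span the membrane repeatedly and switch heterotrimeric G proteins on. Gs raises cAMP through adenylyl cyclase, Gi lowers it, Gq activates phospholipase C, and G12 and G13 act on the cytoskeleton. In SCs, cAMP drives differentiation and myelination, and the adhesion receptor encoded by Adgrg6 is needed for the onset of myelination. Lysophosphatidic acid and sphingosine-1-phosphate, lipids of serum and injured nerve, act on SC shape, adhesion and migration through the LPAR and S1PR families. Endothelin acts on the SC lineage through the endothelin receptors, and thrombin on the protease-activated receptor encoded by F2r.

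Total counts per sample were between 74024323 and 96185890. Of the SC markers, S100b, Erbb3, Ngfr, Cnp and Pmp22 were at 448.1 CPM (counts scaled to libraries of the same size) or more in every sample. The SC marker Gap43 was almost absent, at 0.225 and 0.264 CPM in Lenti-GFP and at 0.0228 and 0.0931 CPM in Lenti-AS, lower in both Lenti-AS samples without passing the test (adjusted p = 0.146 from edgeR). The fibroblast genes Dcn, Lum, Thy1 and Dpt were at or under 0.0321 CPM, but Pdgfra was at 3.085 to 4.072 CPM, Pi16 at 4.992 to 5.237 CPM and Fbln1 at 5.433 to 6.771 CPM. Lenti-AS 1 stood apart in some markers. Its Sox10 was 163 CPM against 61.3 to 77.1 in the others, and its Col1a1 was 2131 against 290.1 to 840.5. Lenti-AS 2 held erythroid globin transcripts, with 0.345% of its counts against at most 0.00108% in the other samples. The summed CPM of the 10 fibroblast markers was 3824 and 4270 in Lenti-GFP and 2826 and 4685 in Lenti-AS, and that of the 10 endothelial markers was 25.74 and 25.97 in Lenti-GFP and 19.6 and 20.4 in Lenti-AS. Macrophage markers summed to 3.57 and 3.76 CPM in Lenti-GFP and 4.30 and 4.55 CPM in Lenti-AS. The defining genes C1qa, C1qb and Tyrobp were at or under 0.0214 CPM in every sample. Csf1r was at 1.88 and 1.92 CPM in Lenti-GFP and 1.94 and 2.28 CPM in Lenti-AS. Cd68 was at 1.29 and 1.18 CPM in Lenti-GFP and 1.84 and 1.80 CPM in Lenti-AS. Of the 3 macrophage markers tested, 2 had higher and 1 a lower fitted value in Lenti-AS. The part of these differences in the receptor values was not tested.

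The sphingosine-1-phosphate and endothelin receptors are the members with more than 1 gene of a family in the set, and the stretch before the start of each of these genes is shown so that they can be compared. The sequences are the 250 bases upstream of the annotated start in the RefSeq annotation of build GRCr8, which is not the build the counts were made on. All are printed in the direction of transcription, 5′ to 3′. Capitals mark matches, on either strand, to a GC box (GGGCGG) or a SOX core (ACAAAG). An AP-1 motif (TGANTCA), a cAMP response element (TGACGTCA) and a TATA box (TATAAA) were also searched, and none of them lies in these windows.
S1pr1, chr2:206314071-206314320, minus strand: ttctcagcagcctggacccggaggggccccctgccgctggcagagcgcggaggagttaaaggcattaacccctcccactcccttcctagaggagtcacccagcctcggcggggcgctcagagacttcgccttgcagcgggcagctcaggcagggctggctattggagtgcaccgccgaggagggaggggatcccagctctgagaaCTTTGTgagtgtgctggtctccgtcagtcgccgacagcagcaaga
S1pr2, chr8:27790345-27790594, minus strand: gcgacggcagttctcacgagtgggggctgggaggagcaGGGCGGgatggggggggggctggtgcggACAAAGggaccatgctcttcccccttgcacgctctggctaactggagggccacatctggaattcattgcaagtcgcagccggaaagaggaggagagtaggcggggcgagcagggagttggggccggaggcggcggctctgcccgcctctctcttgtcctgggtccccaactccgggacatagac
S1pr3, chr17:13946014-13946263, minus strand: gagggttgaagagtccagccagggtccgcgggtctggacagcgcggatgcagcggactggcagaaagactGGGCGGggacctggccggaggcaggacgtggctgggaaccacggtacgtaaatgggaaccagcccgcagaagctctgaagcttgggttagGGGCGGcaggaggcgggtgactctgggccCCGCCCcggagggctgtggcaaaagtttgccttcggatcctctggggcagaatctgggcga
Ednra, chr19:47137674-47137923, plus strand: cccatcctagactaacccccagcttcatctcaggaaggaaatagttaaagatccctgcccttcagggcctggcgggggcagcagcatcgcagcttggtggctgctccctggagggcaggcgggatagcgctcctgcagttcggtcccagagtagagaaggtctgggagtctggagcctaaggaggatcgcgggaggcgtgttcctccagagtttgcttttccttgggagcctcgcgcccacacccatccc
Ednrb, chr15:87086766-87087015, minus strand: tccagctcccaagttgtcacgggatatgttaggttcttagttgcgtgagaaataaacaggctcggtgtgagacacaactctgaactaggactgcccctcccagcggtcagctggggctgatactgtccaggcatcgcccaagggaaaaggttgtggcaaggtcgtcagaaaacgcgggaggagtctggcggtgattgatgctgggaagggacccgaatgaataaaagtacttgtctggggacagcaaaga

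The S1pr3 window holds 3 GC boxes. The S1pr2 window holds 1 GC box and 1 SOX core, and that of S1pr1 holds 1 SOX core, 45 bases before the start. No searched motif was found in the windows of Ednra and Ednrb. The windows of F2r, Adgrg6 and Gpr37l1 were searched too and are not printed. That of F2r holds 1 AP-1 match, 194 bases before the start, and 2 GC boxes. That of Adgrg6 holds 2 GC boxes, and no searched motif was found in that of Gpr37l1. A GC box was found in 38.9% of 21851 protein coding promoters of the same length, a SOX core in 14.5%, AP-1 in 5.69%, a cAMP response element in 1.89% and a TATA box in 12.1%. The GC content was 64.8% for S1pr1, 66.4% for S1pr2, 66.0% for S1pr3, 61.2% for Ednra and 53.2% for Ednrb, against a median of 54.0% over all promoters. Such matches describe the letters of a window only.

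To determine how the receptors differed between the groups, the quasi-likelihood test of edgeR was fitted to the 12446 genes that reached 10 counts in 2 or more samples. A call needed both a Benjamini-Hochberg adjusted p under 0.05 over all of them and a fitted change of 1.3-fold or more. Of all genes, 1.98% were called, 1.31% higher and 0.667% lower in Lenti-AS. None of the 7 tested receptors other than Gper1 was called, 0 higher and 0 lower, and DESeq2 and limma-voom also called 0. The unadjusted p was under 0.05 for 2 of the 7, Lpar1 and S1pr3, as for 2716 of the 12446 genes tested. Counts of unadjusted p under 0.05 in the lists below are to be read beside that share. The median log2 fold change of the 7 was -0.07, against 0.01 over all genes. The groups did not overlap in CPM for 5 of the 7 receptors, 3 lower and 2 higher in Lenti-AS, while 54.9% of all genes had groups that did not overlap. With 2 samples per group, an exact two-sided permutation test of a single gene cannot go under 0.33. Gene lengths were not used here, so CPM values are compared between samples for the same gene and not between genes.

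**Figure D1:**
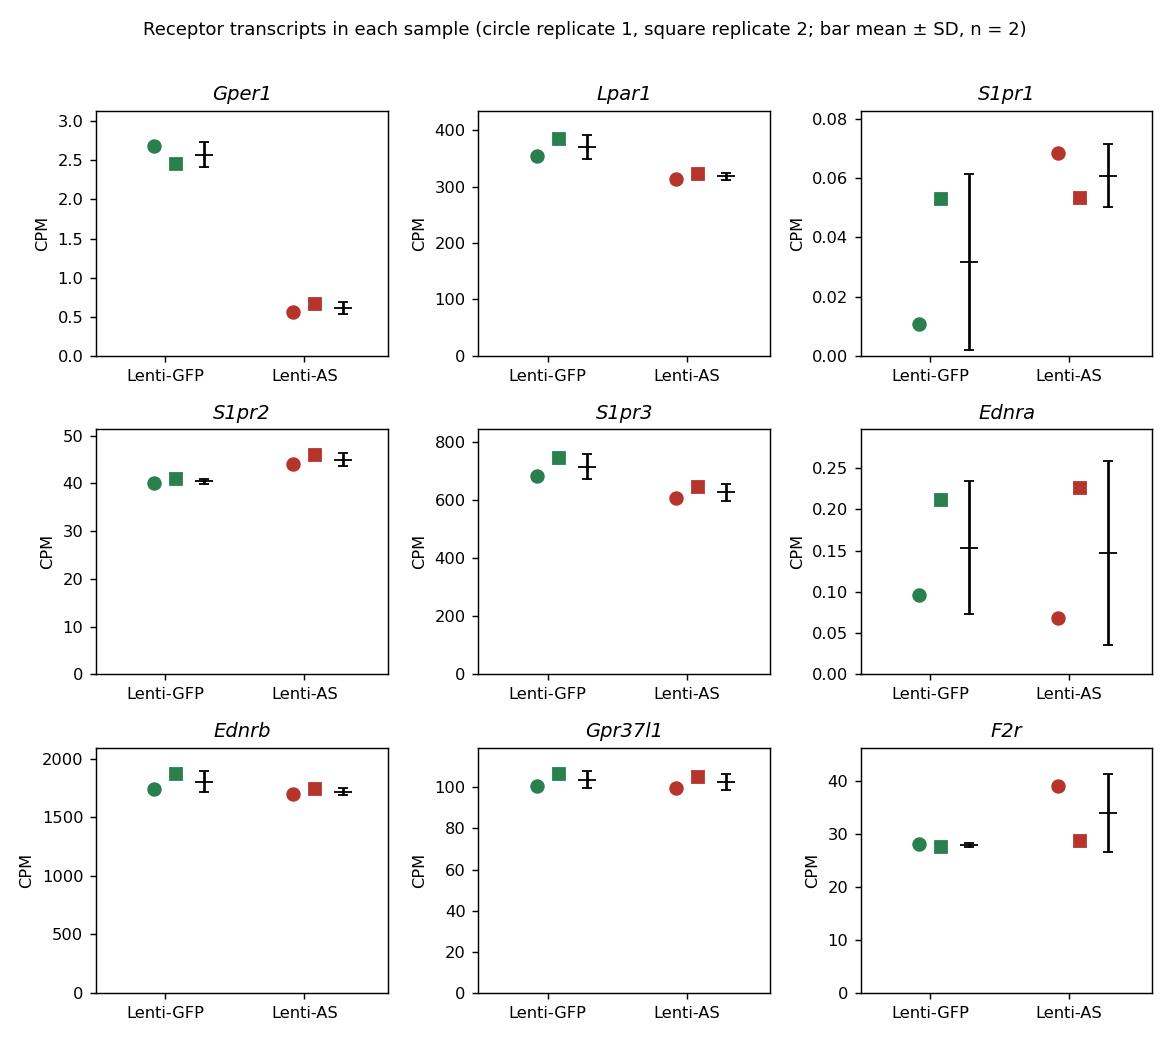
CPM on TMM-scaled libraries of the 9 receptors with a row, in each Lenti-GFP (green) and Lenti-AS (red) sample, on a linear axis from 0. Circles are replicate 1, squares replicate 2 and the bars the mean ± SD (n = 2). Gper1 lies at 2.46 and 2.69 CPM in Lenti-GFP and at 0.559 and 0.665 CPM in Lenti-AS, whereas the other panels show smaller differences or groups that overlap.

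Gper1 encodes a membrane receptor that responds to estrogen and is coupled to G proteins. It had 251 and 233 counts in Lenti-GFP 1 and 2 and 49 and 50 counts in Lenti-AS 1 and 2. Counting error alone gives 95% Poisson intervals of 221 to 284 and 204 to 265 for the Lenti-GFP counts and of 36.3 to 64.8 and 37.1 to 65.9 for the Lenti-AS counts. Gper1 was chosen by its fall in these samples, so the intervals are no test of the difference between the groups. Both Lenti-AS samples lay below both Lenti-GFP samples, and the samples of each group lay close together. The level was 2.57 ± 0.163 CPM in Lenti-GFP against 0.612 ± 0.0750 CPM in Lenti-AS (SD, n = 2 each). The fitted level in Lenti-GFP was 4.21 times that in Lenti-AS, a log2 fold change of -2.07. These are bulk samples, in which fewer cells that express a gene and less RNA per cell cannot be told apart. In build GRCr8, Gper1 overlaps the gene model C12h7orf50, and reads of overlapping genes may be shared, since the strand setting of the counting is not given in the sources used here.

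Only low counts were found for the nuclear estrogen receptors in the same cells. Esr1 had 5 and 7 counts in Lenti-GFP and 0 and 2 in Lenti-AS, and Esr2 had 2 and 7 counts in Lenti-GFP and 2 and 2 in Lenti-AS. Cyp19a1, the aromatase that makes estrogen, had between 2 and 8 counts per sample. None of these genes passed the filter, so no difference was tested at these counts. In CPM, both Lenti-AS samples lay below both Lenti-GFP samples for Esr1 and Cyp19a1, and the groups overlapped for Esr2. Groups that did not overlap were found for 54.9% of all genes tested. Of the 7 estrogen signaling genes tested other than Gper1, edgeR called 1 higher and 0 lower, DESeq2 also called 1 higher, and limma-voom called 0. The gene called by edgeR was Ncoa1, a coactivator of nuclear receptors, with 18.6 and 19.3 CPM in Lenti-GFP and 24.7 and 25.8 CPM in Lenti-AS. Both Lenti-AS samples lay above the Lenti-GFP samples (log2 fold change 0.41, SE 0.07, adjusted p = 0.0499 from edgeR). This call is at the threshold, and whether Ncoa1 was called with 1 sample left out depended on that sample. Its log2 fold change then lay between 0.38 and 0.45. The median log2 fold change of the 7 genes was 0.32.

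The genes with the values most like those of Gper1 over the 4 samples were Sphkap, Tnc, Jag1, Gfra3 and Gldn. Likeness was measured by the Euclidean distance between log2(CPM + 1) values centred on the mean of each gene, over 12445 genes. The distances were 0.0815 for Sphkap, 0.153 for Tnc, 0.193 for Jag1, 0.203 for Gfra3 and 0.204 for Gldn, against a size of 1.15 for the Gper1 profile itself. The 1 added to CPM shrinks the change of a gene at low CPM, such as Gper1. The fitted log2 fold change was -1.38 for Sphkap, -1.20 for Tnc, -0.99 for Jag1, -1.38 for Gfra3 and -0.96 for Gldn, against -2.07 for Gper1. Sphkap, which encodes an anchor protein for protein kinase A, was at 9.25 and 8.99 CPM in Lenti-GFP and at 3.50 and 3.50 CPM in Lenti-AS. Gfra3, the artemin co-receptor, was at 50.4 and 48.3 CPM in Lenti-GFP and at 19.2 and 18.9 CPM in Lenti-AS. Tnc, the matrix protein tenascin C, was at 1242 and 1214 CPM in Lenti-GFP and at 482.2 and 588.6 CPM in Lenti-AS. Jag1, a Notch ligand, was at 387.7 and 395.8 CPM in Lenti-GFP and at 186.3 and 209.4 CPM in Lenti-AS. Gldn, the node of Ranvier protein gliomedin, was at 174.1 and 168.0 CPM in Lenti-GFP and at 86.8 and 89.2 CPM in Lenti-AS. All 5 were thus lower in both Lenti-AS samples, which is what the measure selected, and no test is given for them.

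The neighbours of Gper1 were looked at after its values had been seen. Of the 5 nearest genes with a row on each side in the gene order of GRCr8, 8 were tested, and their adjusted p lay between 0.201 and 0.999. On one side, Gpr146, an orphan receptor, had 463 and 509 counts in Lenti-GFP and 577 and 490 counts in Lenti-AS. Its CPM was higher in both Lenti-AS samples, at 6.58 and 6.52 against 4.96 and 5.37 (log2 fold change 0.34, SE 0.13, adjusted p = 0.201 from edgeR). On the other side, Zfand2a had a log2 fold change of -0.00015 (SE 0.07), with 72.8 and 70.0 CPM in Lenti-GFP and 69.2 and 73.7 CPM in Lenti-AS.

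**Figure D2:**
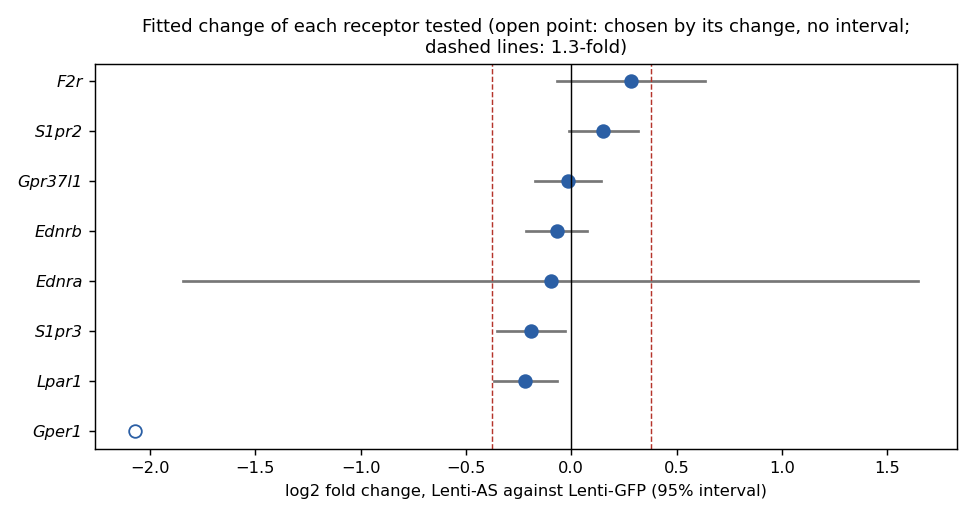
Fitted log2 fold change of Lenti-AS against Lenti-GFP (x axis) for the 8 receptors tested, with 95% intervals as bars and 1.3-fold as dashed lines. The open point is Gper1, chosen by its change and drawn without an interval, at -2.07, and the other 7 points lie between -0.22 and 0.28, with the widest bar for Ednra.

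Lpar1 encodes the lysophosphatidic acid receptor through which this lipid acts on SC shape and migration. Its level was 354.7 and 384.4 CPM in Lenti-GFP and 313.5 and 322.2 CPM in Lenti-AS. Both Lenti-AS values lay below both Lenti-GFP values. The mean was 369.5 ± 21.0 CPM in Lenti-GFP against 317.9 ± 6.12 CPM in Lenti-AS (SD, n = 2 each), a fold of 0.860. The difference did not pass the test (log2 fold change -0.22, SE 0.06, interval -0.37 to -0.07, adjusted p = 0.125 from edgeR). DESeq2 gave an adjusted p of 0.0263 with a fold under the limit of 1.3.

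Enpp2, which encodes autotaxin, the secreted enzyme that makes lysophosphatidic acid, fell. It was at 109.3 and 120.4 CPM in Lenti-GFP and at 74.9 and 80.6 CPM in Lenti-AS, with no overlap. The fitted level in Lenti-GFP was 1.48 times that in Lenti-AS (log2 fold change -0.56, SE 0.08, adjusted p = 0.0328 from edgeR). With 1 sample left out, the log2 fold change of Enpp2 lay between -0.63 and -0.49. Whether Enpp2 was called depended on the sample left out. Enpp2 was the 1 gene that edgeR called among the 15 tested for synthesis, transport and breakdown of lysophospholipids, whose median log2 fold change was 0.07. DESeq2 also called 1 gene of this list higher, Cers2, a ceramide synthase gene, which edgeR did not call.

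Among the other lysophosphatidic acid receptors, Lpar3 was at 72.7 and 67.3 CPM in Lenti-GFP and at 67.3 and 72.6 CPM in Lenti-AS, so that the groups overlapped. Lpar4 was at 15.4 and 16.5 CPM in Lenti-GFP and at 13.2 and 12.9 CPM in Lenti-AS, lower in both Lenti-AS samples, but it did not pass the test (log2 fold change -0.29, SE 0.08, adjusted p = 0.136 from edgeR). Lpar2 had between 10 and 26 counts in each sample. Of the 7 lysophospholipid receptors tested, 0 were called higher and 0 lower by edgeR, DESeq2 or limma-voom, 3 had an unadjusted p under 0.05, and the median log2 fold change was -0.17. Lpar3 and Lpar4 were named after their values were seen.

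S1pr1, S1pr2 and S1pr3 encode receptors for sphingosine-1-phosphate, and the S1pr1 receptor couples to Gi alone, while the others also couple to Gq and to G12 or G13. S1pr1 was almost absent, with 1 and 5 counts in Lenti-GFP and 6 and 4 counts in Lenti-AS, and it was not tested. The upper limit of the widest 95% Poisson interval, that of Lenti-AS 1, was 13.1 counts or 0.149 CPM. S1pr3 was at 683.2 and 744.5 CPM in Lenti-GFP and at 605.6 and 645.0 CPM in Lenti-AS. S1pr2 was at 40.1 and 40.9 CPM in Lenti-GFP and at 44.1 and 46.0 CPM in Lenti-AS. The groups overlapped for neither, with S1pr3 lower and S1pr2 higher in Lenti-AS.

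Neither difference passed the test. For S1pr3 the mean was 713.9 ± 43.3 CPM in Lenti-GFP against 625.3 ± 27.9 CPM in Lenti-AS (SD, n = 2 each). Its log2 fold change was -0.19 (SE 0.07, interval -0.35 to -0.03), with an adjusted p of 0.179 from edgeR. For S1pr2 the mean was 40.5 ± 0.511 CPM in Lenti-GFP against 45.0 ± 1.34 CPM in Lenti-AS (SD, n = 2 each). Its log2 fold change was 0.15 (SE 0.07, interval -0.01 to 0.31), with an adjusted p of 0.251 from edgeR. The intervals leave out a change of 1.3-fold for both.

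Ratios of the counts of 2 receptors within a sample do not depend on the depth of the library. These pairs were chosen after their values were seen, and no test is given. The ratio of S1pr3 to S1pr2 was 17.0 and 18.2 in Lenti-GFP and 13.75 and 14.04 in Lenti-AS. That of Ednrb to Lpar1 was 4.91 and 4.86 in Lenti-GFP and 5.42 and 5.40 in Lenti-AS. In contrast, the ratio of Lpar1 to S1pr3 was 0.519 and 0.516 in Lenti-GFP and 0.5177 and 0.4995 in Lenti-AS, so that the groups overlapped.

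Ednrb and Ednra encode the endothelin receptors, of which the product of Ednrb is known from the SC lineage and that of Ednra from vascular smooth muscle. Ednrb had 162570 and 176993 counts in Lenti-GFP and 148998 and 130795 counts in Lenti-AS. This gave 1741 and 1867 CPM in Lenti-GFP and 1700 and 1740 CPM in Lenti-AS, and the highest Lenti-AS value lay just under the lowest Lenti-GFP value. The mean was 1804 ± 89.0 CPM in Lenti-GFP against 1720 ± 28.2 CPM in Lenti-AS (SD, n = 2 each). The log2 fold change was -0.07 (SE 0.06, interval -0.21 to 0.08, adjusted p = 0.529 from edgeR), an interval that leaves out a change of 1.3-fold. Ednra had 9 and 20 counts in Lenti-GFP and 6 and 17 counts in Lenti-AS. The groups overlapped, and with an interval from -1.84 to 1.65 around a log2 fold change of -0.10 (SE 0.71, adjusted p = 0.952 from edgeR), a difference of several fold in Ednra was not detectable at this depth. The gene model of Ednra overlaps a long noncoding RNA in GRCr8.

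Endothelin ligands were low in these cells. Edn1 was at 1.23 and 1.01 CPM in Lenti-GFP and at 1.13 and 0.918 CPM in Lenti-AS, and Edn2 and Edn3 had at most 4 counts in any sample. Most counts of the endothelin list were those of Mme, the neprilysin that degrades endothelin and other peptides, at 182.6 and 198.1 CPM in Lenti-GFP and 221.3 and 209.3 CPM in Lenti-AS. Mme was higher in both Lenti-AS samples without passing the test (log2 fold change 0.18, SE 0.06, adjusted p = 0.194 from edgeR). Of the 4 endothelin genes tested, 0 were called by edgeR, DESeq2 or limma-voom, 2 had an unadjusted p under 0.05, and the median log2 fold change was 0.02.

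Gpr37l1, a receptor of glia for which prosaposin has been proposed as a ligand, had overlapping groups. Its level was 100.7 and 106.6 CPM in Lenti-GFP and 99.7 and 105.2 CPM in Lenti-AS. The mean was 103.6 ± 4.12 CPM in Lenti-GFP against 102.4 ± 3.88 CPM in Lenti-AS (SD, n = 2 each). The log2 fold change was -0.02 (SE 0.06, adjusted p = 0.900 from edgeR), with an interval from -0.17 to 0.14. Its paralog Gpr37 was at 5.46 and 5.02 CPM in Lenti-GFP and at 4.87 and 4.87 CPM in Lenti-AS. Psap, the gene of prosaposin, was at 4198 and 4239 CPM in Lenti-GFP and at 3806 and 4171 CPM in Lenti-AS (log2 fold change -0.08, SE 0.06, adjusted p = 0.502 from edgeR). Of the 7 genes of this list, 0 were called by edgeR, DESeq2 or limma-voom, 3 had an unadjusted p under 0.05, and the median log2 fold change was 0.18.

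F2r encodes the thrombin receptor, which thrombin opens by cutting its outer end. It was at 28.1 and 27.6 CPM in Lenti-GFP and at 39.1 and 28.6 CPM in Lenti-AS. Both Lenti-AS values lay above the Lenti-GFP values, but Lenti-AS 1 alone was clearly high, while Lenti-AS 2 was within 0.553 CPM of Lenti-GFP 1. The mean was 27.8 ± 0.360 CPM in Lenti-GFP against 33.9 ± 7.37 CPM in Lenti-AS (SD, n = 2 each). The log2 fold change was 0.28 (SE 0.14, interval -0.07 to 0.63, adjusted p = 0.308 from edgeR). The value for F2r rests on Lenti-AS 1. The log2 fold change of F2r was 0.49 without Lenti-AS 2 and 0.04 without Lenti-AS 1. In these fits the spread comes from the Lenti-GFP samples alone, so no p-value is given. Lenti-AS 1 is also the library with the high Sox10 and Col1a1 values given above, and the part of this in the F2r value was not tested. A long noncoding RNA overlaps the F2r gene model in GRCr8.

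Serpine2, which encodes protease nexin-1, an inhibitor that SCs secrete against thrombin, fell. It was at 446.8 and 467.1 CPM in Lenti-GFP and at 267.2 and 285.8 CPM in Lenti-AS. The fitted level in Lenti-GFP was 1.65 times that in Lenti-AS, a difference far larger than the spread within each group (log2 fold change -0.72, SE 0.06, adjusted p = 0.0144 from edgeR). Its log2 fold change lay between -0.77 and -0.68 with 1 sample left out. Whether Serpine2 was called depended on the sample left out. Prothrombin, encoded by F2, had 31 to 33 counts in each sample, and the other protease-activated receptor genes F2rl1, F2rl2 and F2rl3 had at most 13. Serpine2 was the 1 gene called by edgeR, DESeq2 and limma-voom among the 12 tested of the thrombin list, whose median log2 fold change was -0.05.

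**Figure D3:**
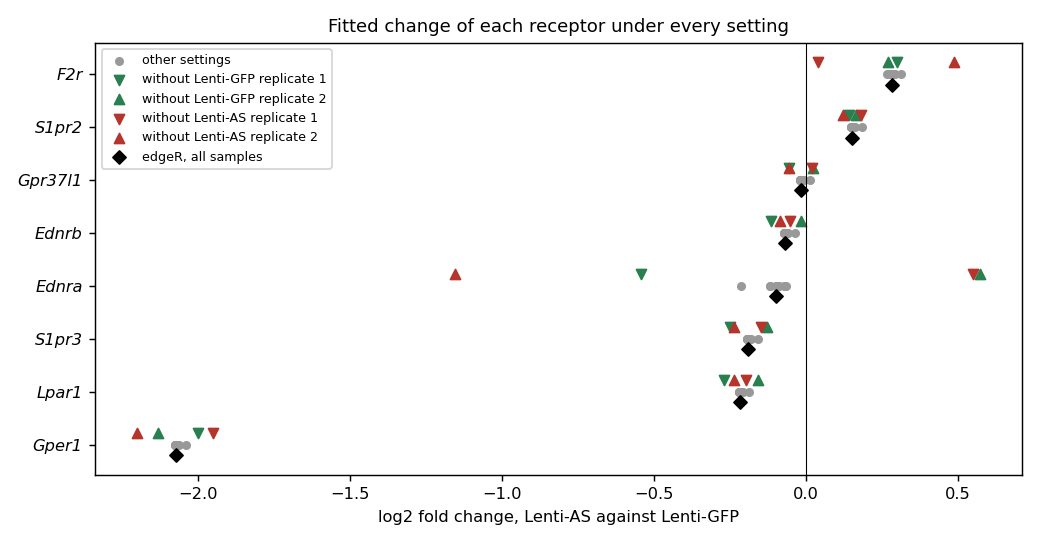
Fitted log2 fold change of Lenti-AS against Lenti-GFP (x axis) for each receptor tested. Diamonds are edgeR on all samples, triangles leave out 1 sample and grey points are other tests, scalings, filters, the replicate block and globin removal. Gper1 stays between -2.20 and -1.95, F2r spreads from 0.04 without Lenti-AS 1 to 0.49 without Lenti-AS 2, and Ednra lies on both sides of 0.

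Adgrg6 itself could not be followed, but 13 other adhesion G protein coupled receptors were tested, a family that binds matrix and cell surface proteins. Of the 31 symbols listed for this family, 16 had a row. Of the 13 tested, edgeR called 1 higher and 0 lower, against 1.31% higher and 0.667% lower among all genes. Adgrb3, a receptor for C1q-like proteins, rose, from 8.24 and 8.98 CPM in Lenti-GFP to 13.4 and 14.3 CPM in Lenti-AS. The fold was 1.61 (log2 fold change 0.68, SE 0.10, adjusted p = 0.0406 from edgeR). With 1 sample left out, the log2 fold change of Adgrb3 lay between 0.63 and 0.75. Whether Adgrb3 was called depended on the sample left out. The fitted value was higher in Lenti-AS for 9 of the 13 and lower for 4. The unadjusted p was under 0.05 for 6, all of them higher, as it was for 2716 of the 12446 genes tested in either direction. The median log2 fold change was 0.39, against 0.01 over all genes, and describes only the receptors with a row that passed the filter. DESeq2 called 3 of this list higher. Adgrg1, in the same subfamily as Adgrg6 and named after its values were seen, was at 134.7 and 119.1 CPM in Lenti-GFP and at 160.0 and 171.6 CPM in Lenti-AS. It was higher in both Lenti-AS samples but did not pass the test (log2 fold change 0.39, SE 0.08, adjusted p = 0.0710 from edgeR).

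A further list of 41 tested G protein coupled receptors of other families held 0 called by edgeR or limma-voom, and DESeq2 called 1 of them lower. The unadjusted p was under 0.05 for 7 with higher and 3 with lower values, and the median log2 fold change was 0.15. Most counts of this list were those of Lgr4, the R-spondin receptor. Lgr4 was at 337.7 and 335.8 CPM in Lenti-GFP and at 284.5 and 324.4 CPM in Lenti-AS (log2 fold change -0.15, SE 0.07, adjusted p = 0.308 from edgeR).

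Below the receptors, Rgs4 was the gene with a call. Its product speeds the shut-off of Gi and Gq subunits, and its transcript fell. Rgs4 was at 76.1 and 79.4 CPM in Lenti-GFP and at 39.2 and 37.5 CPM in Lenti-AS. The fitted level in Lenti-GFP was 2.03 times that in Lenti-AS (log2 fold change -1.02, SE 0.07, adjusted p = 0.00916 from edgeR), and the groups were far apart against their spread. With 1 sample left out, the log2 fold change of Rgs4 lay between -1.05 and -0.99. Whether Rgs4 was called depended on the sample left out. No other gene was called by edgeR, DESeq2 or limma-voom among the 21 tested kinases, arrestins and RGS proteins that regulate receptors and G proteins, and the median log2 fold change of this list was 0.02.

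For the G proteins and the pathways they act on, no gene was called by edgeR. Of 26 G protein subunit genes, 4 had higher and 3 lower values with an unadjusted p under 0.05, and the median log2 fold change was 0.05. Gnai3, a Gi subunit gene and the one with most counts of this list, was at 532.2 and 547.4 CPM in Lenti-GFP and at 480.4 and 449.5 CPM in Lenti-AS (log2 fold change -0.22, SE 0.06, adjusted p = 0.117 from edgeR). Of 38 genes of cAMP synthesis, breakdown and response, 5 had higher and 5 lower values with an unadjusted p under 0.05, with a median of 0.11. Prkar1a, a regulatory subunit gene of protein kinase A, was at 311.8 and 312.3 CPM in Lenti-GFP and at 348.2 and 278.8 CPM in Lenti-AS, which spanned the Lenti-GFP values (log2 fold change 0.01, SE 0.11, adjusted p = 0.978 from edgeR). Of 22 genes of phospholipase C and of actomyosin control, 2 had higher and 3 lower values with an unadjusted p under 0.05, with a median of -0.02. The myosin light chain gene Myl12a was at 565.6 and 579.5 CPM in Lenti-GFP and at 461.4 and 443.7 CPM in Lenti-AS. Its adjusted p was 0.0431 from edgeR, but its fold was under 1.3 (log2 fold change -0.34, SE 0.05), so that it was not called. For these 3 lists DESeq2 called 1, 2 and 1 genes higher, and limma-voom called 1, in the cAMP list.

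Over the 12 lists around the receptors, 208 genes that are not among the 10 receptors were tested, and edgeR called 2 higher and 3 lower. These were 2.40% of the 208, near the 1.98% called among all genes. DESeq2 called 9 higher and 4 lower. The median log2 fold change of the 208 was 0.05, against 0.01 over all genes.

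**Figure D4:**
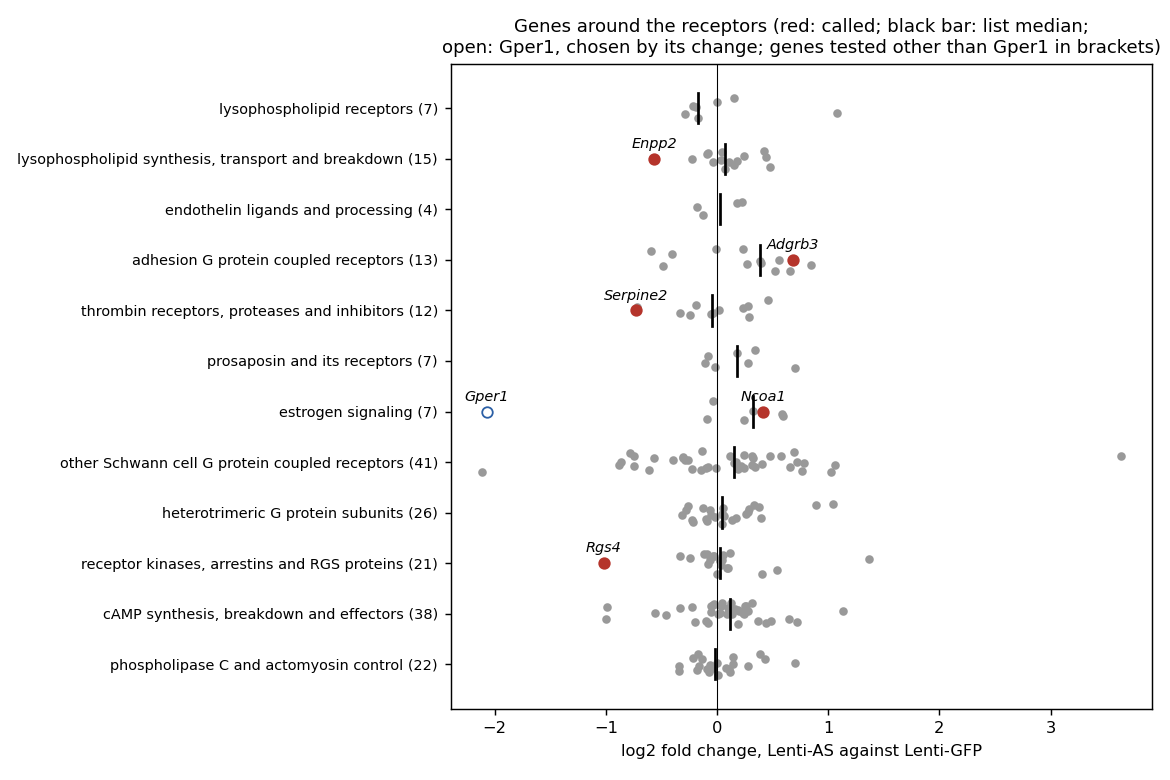
Fitted log2 fold change of Lenti-AS against Lenti-GFP (x axis) for every tested gene of 12 lists around the receptors, with the number tested other than Gper1 in brackets. Black bars are medians without Gper1, red points are genes called by edgeR, and the open point is Gper1, chosen by its change. The called points are Rgs4, Serpine2 and Enpp2 on the left of 0 and Adgrb3 and Ncoa1 on the right.

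Markers of the cells in the culture were compared in the same fit. Of 12 SC markers, edgeR called 1, Mbp, the myelin basic protein gene, which rose from 29.6 and 32.1 CPM in Lenti-GFP to 42.0 and 43.7 CPM in Lenti-AS (log2 fold change 0.47, SE 0.07, adjusted p = 0.0428 from edgeR). The log2 fold change of Mbp lay between 0.42 and 0.53 with 1 sample left out. Whether Mbp was called depended on the sample left out. The fibroblast, perineurial, endothelial, mural and macrophage lists held 26 tested genes, of which edgeR called 0 and 5 had an unadjusted p under 0.05. DESeq2 called 1 fibroblast and 1 endothelial gene lower, and limma-voom 1 fibroblast gene. The fibroblast gene with most counts was Col3a1, a fibrillar collagen that SCs also make, at 3261 and 2955 CPM in Lenti-GFP and 2198 and 2400 CPM in Lenti-AS (adjusted p = 0.0520 from edgeR). The endothelial gene with most counts was Tek, at 19.8 and 20.2 CPM in Lenti-GFP and 15.3 and 14.7 CPM in Lenti-AS (adjusted p = 0.0559 from edgeR), while Cdh5, which defines endothelial cells, had at most 0.0536 CPM. Itgb4, Myh11 and Csf1r led the perineurial, mural and macrophage lists, with log2 fold changes of 0.25, 0.02 and 0.15 and adjusted p from 0.119 to 0.947 by edgeR. The part of these markers in the receptor values was not tested.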

How the data were processed

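Total RNA of each sample was sequenced by the authors as 50 bp paired-end reads. Whole-number counts per gene were deposited by the authors with no normalization. The paper names hisat2, rn6 and featureCounts on RefSeq exons, whereas the submitters' processing notes name GSNAP and featureCounts. Versions and the settings for strand and multiple matches are not given in the sources used here. Of the 17949 genes, 617 rows carry a copy suffix, and 1 repeated header row was dropped.

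Samples were grouped from their labels. The 12446 genes that reached 10 counts in 2 or more samples were fitted with edgeR 4.0.16 in R 4.3.3 (TMM, glmQLFit, glmQLFTest, no replicate term), with Benjamini-Hochberg adjustment over all of them. Calls needed an adjusted p under 0.05 and a fold of at least 1.3, the authors' limits. The authors used DESeq2, which was run as an alternative (1.42.0), as were limma-voom (limma 3.58.1), the newer quasi-likelihood fit, other scalings and filters, a replicate block, each sample left out, removal of globin genes and a fold of 1.5. CPM values use TMM-scaled library sizes. Poisson intervals cover counting error only. On simulated data for this comparison with 12446 genes, 40.7% of genes changed 1.5-fold and 76.0% of those changed 2-fold were recovered as calls. Smaller changes were not simulated.

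The 2 samples of each group were not copies of a library (mean chi-square per gene 30.8 for Lenti-GFP and 99.1 for Lenti-AS). The receptors and the lists were chosen with earlier results of these data known. Named genes were the 10 receptors, each called gene of a list or, where a list had none, the gene with the highest mean CPM, and the 5 genes closest to Gper1. Any other gene was named after its values were seen, and some marker genes are not reported here. Promoters were found for 8 of the 10 receptors in the RefSeq table of GRCr8, and those of Gper1 and Lpar1 were not used here.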

Additional observations from a re-analysis of the deposited data

How the results depend on the processing

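Of the 8 receptors tested, Lpar1, S1pr2, S1pr3 and Ednrb kept their direction and stayed uncalled under every alternative run. Gper1 was chosen by its fall in these same samples, so its direction under other settings is no further evidence. Gper1 stayed lower throughout, with a log2 fold change between -2.20 and -1.95 with 1 sample left out. In such a fit, a lone sample is assumed to vary like the other group. F2r went from 0.041 to 0.49 and Ednra from -1.15 to 0.57 with 1 sample left out. Gpr37l1 went from -0.056 to 0.025, and was 0.015 with library totals. Library totals moved the median log2 fold change of all genes to 0.04.

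With all samples, 163 genes were called higher and 83 lower. DESeq2 called 488 and 139, a fold limit of 1.5 gave 81 and 43, and leaving out 1 sample gave 0 to 1266 and 1 to 271. The higher share of calls was 66.3% with edgeR, 77.8% with DESeq2 and 73.4% with library totals. Among receptors other than Gper1, only F2r was called under any setting, in the fit without Lenti-AS 2. The spread in that fit comes from the Lenti-GFP samples alone. In the 12 lists without the 10 receptors, 2 genes were called higher and 3 lower. DESeq2 called 9 higher, library totals 4, no filter 4, the newer fit 1, globin removal 1 and a fold of 1.5 called 1. Leaving out 1 sample gave 0 to 26 higher and 0 to 8 lower in the lists. Ncoa1 was also not called by limma-voom, the newer fit or after globin removal (adjusted p = 0.0596, 0.0635 and 0.0588). The list genes that edgeR called with all samples, and Mbp, lost their calls without either Lenti-GFP sample. They kept them without either Lenti-AS sample, so that this dependence was shared and not particular to a gene. A sample left out leaves fewer samples, and the spread is then taken from the other group alone. The causes of these differences were not tested.

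Whether replicate numbers pair the samples is not stated. Deviations from the group mean of same-numbered samples had a correlation of -0.02 across genes. With 2 samples per group, this value cannot show whether same-numbered samples share a culture or batch. With the replicate block, 3 genes were called higher and 14 lower (17.6% higher), 0 and 2 in the lists, and the log2 fold change of Gper1 was -2.07. Rgs4 and Serpine2 were called with the block, and Enpp2, Adgrb3, Ncoa1 and Mbp were not. Depth limits S1pr1 and Ednra, with at most 6 and 20 counts per sample.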

Other observations

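The genes of the cAMP list and of the list of other receptors with an unadjusted p under 0.05 are named here after their values were seen, in both directions. In the cAMP list, the fitted log2 fold change was higher in Lenti-AS for the protein kinase A subunit genes Prkar2b (0.72) and Prkaca (0.64), for Pkig (0.19), whose product inhibits that kinase, for the coactivator gene Crebbp (0.36) and for the phosphodiesterase gene Pde4a (1.14). It was lower for the phosphodiesterase genes Pde3b (-0.33), Pde1a (-0.56), Pde1c (-0.19) and Pde7a (-0.46) and for Crem (-0.23), which encodes a cAMP-responsive transcription factor. None of these was called by edgeR, whereas DESeq2 called Prkar2b and Prkaca higher and limma-voom called Prkar2b higher.

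In the list of other receptors, the fitted log2 fold change was higher for Gabbr1 (0.19), P2ry4 (1.03), P2ry12 (0.34), Ptger1 (0.32), Calcrl (0.78), Gprc5b (0.31) and Gprc5c (3.63), and lower for Cxcr4 (-0.26), Ackr3 (-0.79) and Sstr1 (-2.11). None was called by edgeR or limma-voom, and DESeq2 called Ackr3 lower. The 2 values farthest from 0 came from few counts. Gprc5c had 0 and 2 counts in Lenti-GFP and 12 and 12 in Lenti-AS, and Sstr1 had 11 and 20 in Lenti-GFP and 2 and 4 in Lenti-AS.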
